A study of Homo sapiens with 18 samples.

Results

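Ribosome biogenesis factors are the proteins that transcribe, cut, modify and fold ribosomal RNA and assemble it with ribosomal proteins. RNA polymerase I transcribes a long ribosomal RNA precursor in the nucleolus. Small nucleolar ribonucleoproteins (snoRNPs) guide its methylation and pseudouridylation, and separate groups of factors then build the small and the large ribosomal subunit. Most of these factors work only while a subunit is being made and are not part of the finished ribosome. Their mRNA levels are known to move together in growing cells, and MYC, a transcription factor that binds DNA with its partner MAX, is a known activator of many of them.

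The levels of 40 such factors were examined among 36684 genes in 18 RNA-seq libraries of Hep3B cells, a human hepatoma line used here as a hepatocyte model. The factors are a list of nucleolar and RNA polymerase I genes that was chosen with earlier results of these data known. The 6 groups of 3 libraries were Con, without added lipid; Model, given free fatty acids (FFA) to load the cells with lipid; FUCO-0.5, FUCO-1 and FUCO-2, given FFA with fucoxanthin, a carotenoid of brown algae, at 0.5, 1 and 2 μM; and RES, given FFA with Resmetirom, an agonist of thyroid hormone receptor β. Con is therefore the only group without FFA, and the FUCO and RES groups were compared with Model, FUCO-2 also with FUCO-1, and RES also with FUCO-2. All libraries came from the same line, and the FFA concentration, the treatment times and the RES dose of these libraries are not given in the sources used here. The methods describe the replicates as biological without saying how the cultures were separated, so the p-values measure the spread between these libraries.

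Each library held 16916688 to 23083498 counts, and 14557 genes had enough counts to be tested, among them all 40 factors. A library gave between 105 (PPAN) and 22199 (NCL) counts for a factor, apart from NOP2, which had 16 to 36. On the leading principal component, which held 47% of the variance, the RES libraries lay at 61.6 to 64.3 and all others at -23.7 to 0.3. Con replicate 1 stood at 21 on the next component, against 34.6 and 31.8 for the other Con libraries. All 9 hepatocyte markers examined were present in every group, and their summed level was 66080 ± 4042 CPM (SD, n = 3) in Con, 52140 ± 251 in Model, 36950 ± 2210 in FUCO-2 and 15330 ± 215 in RES. The 6 markers of blood, endothelial, stromal and muscle cells summed to 1.13 to 3.28 CPM in a library. Levels in CPM are read counts divided by the library's total, after the TMM method had brought the libraries to the same scale. POLR1C, BYSL, TSR1, NOC2L, NOC3L, NOP16, BOP1, GNL3 and PPAN each overlap a gene that held over 5% of their own counts, and whether the counting used the strand is not stated, so reads of these pairs could be mixed.

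The 40 factors together had their lowest level in Con and their highest in RES. Their summed level was 3408 ± 208 CPM in Con (mean ± SD, n = 3), 3634 ± 146 in Model, 3678 ± 96.5 in FUCO-0.5, 3809 ± 247 in FUCO-1, 4225 ± 223 in FUCO-2 and 4497 ± 94.8 in RES. The FUCO-2 libraries lay between 4084 and 4482 CPM and the RES libraries between 4418 and 4602, all above the Model range of 3484 to 3776. FUCO-2 and RES overlapped each other, as did Con, whose libraries ran from 3213 to 3627, and Model. The mean was highest in RES for 27 factors, in FUCO-2 for 10, in FUCO-1 for NOP56 and FBL, and in Con for NOP2. Con had the lowest mean for 25 factors. In RNA from whole cultures, a larger share of cells with a high level and more of the mRNA in each cell cannot be told apart. The summed level of the hepatocyte markers, of which ALB had the most counts, was lowest in FUCO-2 and RES, where the factors were highest. Against Model, 8 of the 9 markers were called lower in FUCO-2 and none higher (9.71% and 10.8% of all genes). In RES 8 were called lower and 1, FGB, higher (25.1% and 24.4% of all genes). The part of these markers in the result was not tested.

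**Figure D1:**
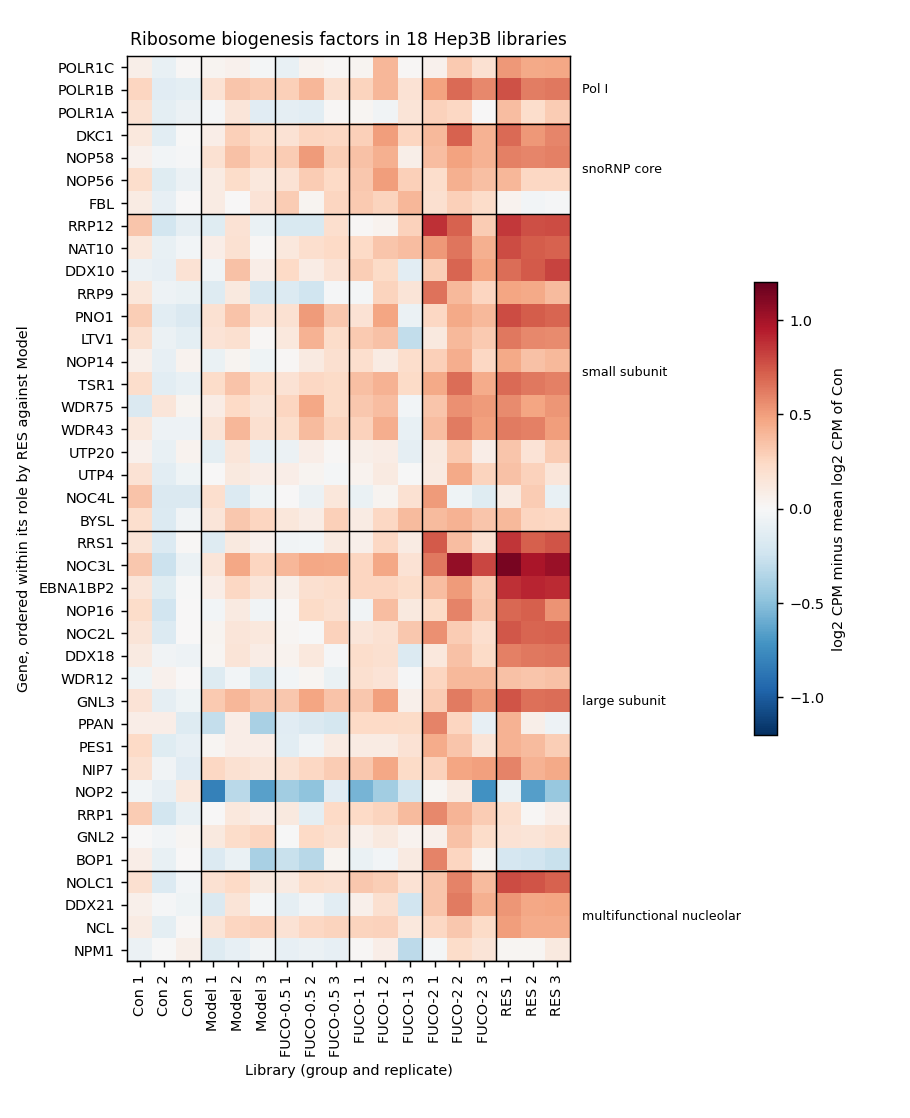
Level of each of the 40 factors in each of the 18 libraries, as the log2 CPM minus the mean log2 CPM of the 3 Con libraries, with genes grouped by role and ordered by their difference between RES and Model. Red cells, for levels above Con, fill most of the FUCO-2 and RES columns, while BOP1, RRP1, GNL2 and FBL stay pale in RES and NOP2 is mostly blue.

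The factors differed widely in abundance. Scaled to the length of their exons, NPM1 (nucleophosmin) and NCL (nucleolin) were the most abundant in Con at 77.0 and 70.9 CPM per kilobase, followed by the box C/D snoRNP proteins FBL at 44.6 and NOP56 at 44.4. The RNA polymerase I subunits were much lower on this scale, POLR1A at 4.18, POLR1B at 3.76 and POLR1C at 3.45 CPM per kilobase. DDX10, a helicase of the small subunit pathway, at 0.964, and NOP2, a methyltransferase of the large subunit pathway, at 0.328, had the lowest levels per kilobase. In each of the groups given FFA the mean of NCL was above that of NPM1 on this scale. It was 83.1 against 71.9 CPM per kilobase in Model, 85.3 against 83.5 in FUCO-2 and 97.8 against 79.8 in RES. The lengths join the exons of all annotated transcripts of a gene, such as 18059 bases for DDX10, and are not those of 1 mRNA. The order of genes by mRNA length can therefore differ from the order given here.

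Many of the promoters share a short sequence. The E-box CACGTG, which reads the same on both strands and is known as a binding sequence of MYC with MAX, was searched in the 250 bases before and 50 bases after 1 start per gene in RefSeq GRCh38.p14. For PES1, BYSL and NPM1 this start lay inside the gene and not at its outer end. The PES1 window was chr22:30591861-30592160, in a gene that spans 30576625-30607013. The E-box was present in 15 of the 34 factors with a promoter sequence (44.1%), against 9.99% of 11524 promoters of tested genes and 7.43% of all 27305 promoters of the same length. Among 121 promoters of further ribosome biogenesis genes, 28 held it (23.1%). In 5 factors the E-box began before the start and in 10 within the 50 bases after it. The 30 bases around it are shown for the 6 factors that were higher with both FUCO-2 and RES than in Model, on the strand of the gene, with the E-box in capitals. They lie at chr4:2963374-2963403 (NOP14, minus strand), chr3:51941892-51941921 (RRP9, minus), chr11:34105602-34105631 (NAT10, plus), chr10:94362903-94362932 (NOC3L, minus), chr22:30591880-30591909 (PES1, minus) and chr1:43172790-43172819 (EBNA1BP2, minus). In EBNA1BP2 the E-box began 237 bases before the start, and in the other five it lay within 20 bases of it.
NOP14: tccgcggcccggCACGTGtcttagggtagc
RRP9: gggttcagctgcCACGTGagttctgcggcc
NAT10: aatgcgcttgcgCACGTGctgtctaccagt
NOC3L: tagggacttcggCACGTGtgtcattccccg
PES1: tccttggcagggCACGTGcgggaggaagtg
EBNA1BP2: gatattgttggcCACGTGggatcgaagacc

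The E-box was not more frequent among the factors that rose than among the others. Of the factors higher in FUCO-2 than in Model, 6 of 17 with a promoter sequence held it (35.3%), and of those not called 9 of 17 (52.9%). For RES the numbers were 10 of 24 (41.7%) and 5 of 10 (50%). FBL, GNL2, BYSL, NOP2 and UTP4 had an E-box and were called with neither treatment. No promoter sequence was matched for NOP58, RRP12, BOP1, RRS1, DDX18 and NOLC1. The matches describe letters in these windows and not binding.

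The comparison of Model with Con set FFA without a further treatment against no FFA. The paper dissolved its FFA in albumin, and whether Con received albumin is not given. The level of 4 factors was higher in Model, GNL3, NCL, NOP58 and TSR1, and none was called lower with edgeR. GNL3 (nucleostemin, a nucleolar GTPase) stood at 98.3, 81.3 and 84.7 CPM in the 3 Con libraries and at 109.1, 115.4 and 109.8 in Model, without overlap. Its fitted log2 difference was 0.34 (SE 0.095, adjusted p = 0.0143, edgeR). NCL, which binds ribosomal RNA precursors and regulates their transcription, stood at 673.8, 583.8 and 639.2 CPM in Con and 702.9, 754.7 and 765 in Model. All 3 Model libraries lay above Con, with a log2 difference of 0.23 (SE 0.069, adjusted p = 0.0228). NOP58, a core protein of box C/D snoRNPs, measured 90.1, 84.9 and 86.2 CPM in Con and 99.1, 110.8 and 104.1 in Model. These did not overlap either, and the log2 difference was 0.27 (SE 0.081, adjusted p = 0.0252). TSR1, a late factor of the small subunit, was higher by 0.25 in log2 (SE 0.086, adjusted p = 0.0451), and its groups overlapped, with Con replicate 1 at 59.5 CPM and the lowest Model library at 59.4.

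With 8.43% of all tested genes called higher in Model and 9.12% called lower, 4 of 40 factors (10%) was close to the share among all genes. The median log2 difference of the 40 factors was 0.09, against 0.001 for all tested genes, and 27 of 40 were above 0. At an unadjusted p under 0.05, which 30.2% of all genes passed, 11 factors were higher and 1, NOP2, was lower. DESeq2 also called 4 higher and none lower. Libraries scaled by their totals alone gave 9 factors higher and none lower, with 12.5% of all genes higher and 6.24% lower. The count rested on single libraries. It rose to 13 without Con replicate 1, fell to 1 without Model replicate 3, and was 0 without Con replicate 2, without Con replicate 3 or without Model replicate 2. Of all genes, 3047, 1654, 1601, 1597 and 1780 were called in either direction in these fits, in the same order. With all libraries 1227 genes were higher and 1328 lower. Con replicate 1 was the Con library with the highest level of most factors, with a median log2 deviation over the 40 of 0.141, against -0.106 and -0.038 for the other Con libraries.

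At the lowest dose of fucoxanthin, no factor was called. FUCO-0.5 against Model gave 0 of 40 with edgeR, with DESeq2 and at an unadjusted p under 0.05, where 0.289% of all genes were called higher and 1.16% lower (0.495% and 0.941% with libraries scaled by their totals) and 11.3% passed unadjusted. The median log2 difference of the factors was 0.022, with values from -0.08 for DDX21 to 0.24 for NOP2. At 1 μM, 34 of 40 factors were above 0 and the median was 0.076, against -0.002 for all genes, but none was called by edgeR (0.893% of all genes higher, 2.32% lower, and 1.3% and 2.03% with library totals). At an unadjusted p under 0.05, 7 factors were higher and none lower, beside 16.3% of all genes that passed in either direction. DESeq2 called 2 factors, and 653 of all genes. The smallest adjusted p belonged to WDR12, whose FUCO-1 libraries at 73.1, 71.5 and 63.1 CPM all lay above the Model libraries at 57.2, 62.2 and 56.2. Its log2 difference was 0.24 (SE 0.071, adjusted p = 0.0611). FBL, the methyltransferase of box C/D snoRNPs, followed with 0.23 (SE 0.075, adjusted p = 0.0912). PPAN, a large subunit factor, had the largest difference, 0.42 (SE 0.16, adjusted p = 0.166). A fit of these 2 groups alone called 4 factors, and 1 factor passed when Con replicate 1, FUCO-1 replicate 3 or FUCO-2 replicate 1 was left out. Of all genes, 976 were called in that fit and 661, 300 and 650 in these omissions. The main fit called 130 genes higher and 337 lower.

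At 2 μM the picture changed. In FUCO-2, 21 of 40 factors (52.5%) were higher than in Model and none was lower, where 10.8% of all tested genes were called higher and 9.71% lower. All 40 fitted differences were above 0, from 0.015 for GNL2 to 0.66 for RRP12 on the log2 scale, with a median of 0.256 against 0.010 for all genes. The libraries of the groups did not overlap for 25 factors, all higher in FUCO-2, against 18.6% of all genes. DESeq2 called the same number, 21. At an unadjusted p under 0.05, which 33% of all genes passed in either direction, 27 factors were higher and none lower. No factor was a DEG, with a log2 difference beyond 1 as well, in this or any other comparison with edgeR or DESeq2. DEGs made up 1.95% of all genes in Model against Con, 0.268%, 0.495%, 1.6% and 9.91% in FUCO-0.5, FUCO-1, FUCO-2 and RES against Model, 0.577% in FUCO-2 against FUCO-1 and 9.02% in RES against FUCO-2. By role, the calls held 10 of 15 large subunit factors, 7 of 14 small subunit factors, 2 of 4 multifunctional nucleolar proteins, 1 of 4 core snoRNP proteins and 1 of 3 polymerase subunits. The number called depended on single libraries, and was 8 without Model replicate 1, 11 without Model replicate 3 and 10 without FUCO-2 replicate 2. Of all genes, 2028, 1972 and 2055 were called in either direction in these fits. With all libraries 1576 genes were higher and 1414 lower. WDR12, RRP9, NOP14, BOP1, DDX21, NOC3L, RRP12 and NAT10 were called in all 26 alternatives. With libraries scaled by their totals, 27 factors were higher, beside 14.9% of all genes higher and 7.07% lower.

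RES changed more of them. Against Model, 29 of 40 factors (72.5%) were higher and none was lower, where 24.4% of all genes were called higher and 25.1% lower. The median log2 difference was 0.374, against 0.002 for all genes, and 37 of 40 were above 0. The groups did not overlap for 32 of 40 factors, all higher in RES, against 32.2% of all genes. DESeq2 called 29 as well. At an unadjusted p under 0.05, which 55% of all genes passed in either direction, 31 factors were higher and none lower. The calls held all 3 polymerase subunits, 11 of 14 small subunit factors, 10 of 15 large subunit factors, 3 of 4 multifunctional proteins and 2 of 4 core snoRNP proteins. Leaving out any of the 18 libraries gave between 27 and 31 calls. Library totals alone shifted the median of all genes by 0.136 in this comparison. On that scale all 40 factors were above 0, their median was 0.507 and 33 were called, beside 36.5% of all genes higher and 18.3% lower. All comparisons with Model used the same 3 Model libraries, so their differences are not independent of each other.

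**Figure D2:**
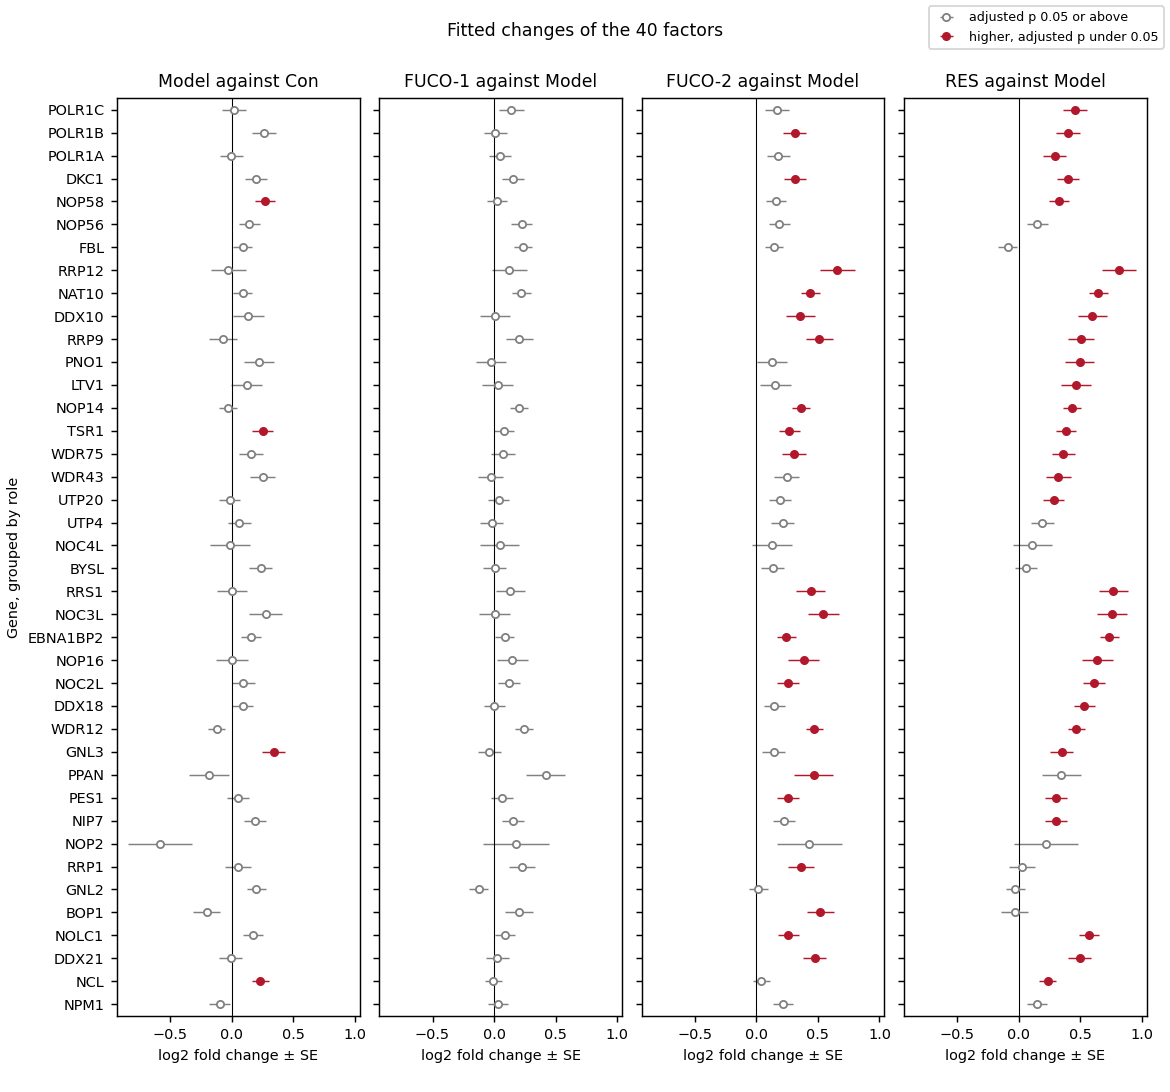
Fitted log2 fold change with its standard error for each of the 40 factors, grouped by role, in Model against Con and in FUCO-1, FUCO-2 and RES against Model. Filled red points mark factors called higher at an adjusted p under 0.05 in edgeR: 4, 0, 21 and 29 of 40 from left to right, and no factor was called lower.

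Among the RNA polymerase I subunits, all were higher in RES and POLR1B alone was called in FUCO-2. POLR1B, the next largest subunit of the catalytic core, measured 37.9, 42.1 and 41.4 CPM in Model, 46.9, 53.7 and 49.9 in FUCO-2 and 57.0, 51.4 and 52.0 in RES. Neither treated group overlapped Model. The log2 difference was 0.31 in FUCO-2 (SE 0.095, adjusted p = 0.022) and 0.40 in RES (SE 0.094, adjusted p = 0.00103). POLR1A, the largest subunit, stood at 81.3, 90.4 and 74.7 CPM in Model, 99.01, 97.52 and 82.32 in FUCO-2 and 105.6, 94.9 and 101 in RES. FUCO-2 overlapped Model and was not called (0.18, SE 0.090, adjusted p = 0.169), and RES did not overlap it (0.29, SE 0.090, adjusted p = 0.00914). The POLR1A call in RES was lost without Model replicate 3 (adjusted p = 0.0667). POLR1C, which also belongs to RNA polymerase III, was at 19.4, 19.6 and 18.6 CPM in Model, 19.6, 23.5 and 21.5 in FUCO-2 and 27.17, 26 and 26.17 in RES. Its RES libraries lay above all FUCO-2 libraries, and POLR1C was higher in RES than in Model (0.46, SE 0.098, adjusted p = 0.000356) and than in FUCO-2 (0.30, SE 0.097, adjusted p = 0.0139). Its overlapping gene is XPO5.

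Of the 4 core snoRNP proteins, DKC1 was called in both treatments, NOP58 in RES, and FBL and NOP56 in neither. DKC1, the pseudouridine synthase of box H/ACA snoRNPs, was at 77.5, 89.4 and 85.1 CPM in Model, 96.3, 119.4 and 97.9 in FUCO-2 and 117.3, 105 and 110.3 in RES. Both treated groups lay wholly above Model, with log2 differences of 0.32 (SE 0.089, adjusted p = 0.013) and 0.40 (SE 0.088, adjusted p = 0.00055). Of the box C/D proteins, FBL measured 101.9, 95.6 and 106.7 CPM in Model, 108.5, 116.3 and 111.1 in FUCO-2 and 98.2, 93.4 and 94.4 in RES, so that the RES libraries were among the lowest. FBL was not called against Model in FUCO-2 (0.14, SE 0.075, adjusted p = 0.19) or RES (-0.09, SE 0.075, adjusted p = 0.343), and it was lower in RES than in FUCO-2 (-0.23, SE 0.075, adjusted p = 0.0132). NOP56, which holds the box C/D particle together with NOP58, stood at 234.6, 254.2 and 239 CPM in Model, 253.1, 294.2 and 281 in FUCO-2 and 287.9, 260.5 and 260.6 in RES. It was called in neither FUCO-2 (0.19, SE 0.085, adjusted p = 0.126) nor RES (0.15, SE 0.085, adjusted p = 0.142). NOP58 itself was higher in RES (0.33, SE 0.080, adjusted p = 0.00147) and not called in FUCO-2 (0.16, SE 0.081, adjusted p = 0.17).

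NAT10 (chr11:34105629-34146908 in RefSeq, GRCh38), which acetylates cytidines of the small subunit RNA, was among the 3 factors with the smallest adjusted p in FUCO-2 and in RES. The Model libraries gave 56.0, 60.4 and 53.6 CPM, FUCO-2 gave 76.2, 82.8 and 71.3, and RES gave 91.5, 87.9 and 86.8. The 3 groups did not overlap, and Con, at 58.1, 49.8 and 51.8, overlapped Model. NAT10 was 1.36-fold higher in FUCO-2 than in Model (log2 0.44, SE 0.076, adjusted p = 0.000226) and 1.57-fold higher in RES (0.65, SE 0.075, adjusted p = 1.35e-07). RRP12 (chr10:97356357-97401370), a factor of small subunit export and late pre-rRNA processing, had the largest fold change of all factors in both comparisons. Its Model libraries stood at 25.1, 31.2 and 26.2 CPM, FUCO-2 at 50.8, 45.2 and 34.1, and RES at 49.8, 47.4 and 47.6. All treated libraries lay above Model, but FUCO-2 spread more widely than RES. The increase was 1.58-fold in FUCO-2 (log2 0.66, SE 0.14, adjusted p = 0.00143) and 1.76-fold in RES (0.81, SE 0.14, adjusted p = 2.71e-05).

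RRP9 (log2 0.51 in FUCO-2 and 0.50 in RES), a snoRNP protein of the early pre-rRNA cleavages, NOP14 (0.36 and 0.43), of the early small subunit particle, TSR1 (0.27 and 0.38), DDX10 (0.36 and 0.60) and WDR75 (0.31 and 0.36), which supports transcription of the precursor, were the other small subunit factors called in both. The FUCO-2 libraries of DDX10 overlapped Model. PNO1, LTV1, WDR43 and UTP20 were called in RES only as far as the comparisons with Model go. Between RES and FUCO-2 themselves, PNO1 (0.37, adjusted p = 0.0117) and LTV1 (0.31, adjusted p = 0.0387), both of late small subunit maturation, were higher in RES, whereas WDR43 (0.08, adjusted p = 0.551) and UTP20 (0.10, adjusted p = 0.371) were not called. UTP20, a scaffold of the early particle, measured 53.3, 63.8 and 54.3 CPM in Model, 62.8, 71.9 and 60.9 in FUCO-2 and 72.6, 64.6 and 71.5 in RES. Its RES libraries were above Model, narrowly in 1 library (0.29, SE 0.085, adjusted p = 0.00709), and the call was lost without Model replicate 1 (adjusted p = 0.0501). That of WDR43 was lost without the same library (adjusted p = 0.0573). UTP4, NOC4L and BYSL were called in neither treatment, with log2 differences of 0.22, 0.13 and 0.13 in FUCO-2 and 0.19, 0.11 and 0.06 in RES.

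BOP1, PES1 and WDR12 form the PeBoW complex, which is needed to process the RNA of the large subunit. WDR12 (chr2:202874261-202911673) had the smallest adjusted p of all factors in FUCO-2. It stood at 57.2, 62.2 and 56.2 CPM in Model, 76.4, 83.6 and 83.4 in FUCO-2 and 81.2, 80.5 and 81.4 in RES. FUCO-2 and RES were both far above Model and overlapped each other. WDR12 was 1.39-fold higher in each (log2 0.47, SE 0.071, adjusted p = 4.85e-05 in FUCO-2, and 0.47, SE 0.071, adjusted p = 6.31e-06 in RES). PES1 measured 84.5, 87.6 and 87.5 CPM in Model, 112.7, 104.4 and 92.4 in FUCO-2 and 110.9, 107.9 and 101.6 in RES. It was higher in both, by 0.25 (SE 0.089, adjusted p = 0.0441) and 0.30 (SE 0.088, adjusted p = 0.00616). The FUCO-2 call of PES1 was lost in 8 of 26 alternatives (adjusted p up to 0.167), and the RES call in none.

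BOP1 did not follow its partners in RES. It stood at 78.6, 83.4 and 67.3 CPM in Model, 133.1, 105.2 and 90.3 in FUCO-2 and 76.3, 74.8 and 73.2 in RES. FUCO-2 lay wholly above Model and RES, while RES fell inside the Model range. BOP1 was 1.43-fold higher in FUCO-2 than in Model (log2 0.52, SE 0.11, adjusted p = 0.00162), was not called in RES (-0.03, SE 0.11, adjusted p = 0.835), and was lower in RES than in FUCO-2 (-0.55, SE 0.11, adjusted p = 0.000215). The calls against Model and between the treatments held in all 26 alternatives, with log2 values of 0.36 to 0.64 and of -0.67 to -0.39. For PES1 (0.05, adjusted p = 0.664) and WDR12 (adjusted p = 0.994) the treatments were not called different. The gene overlapping BOP1 is SCX. FUCO-2 replicate 1 was the highest of its group for BOP1, PES1, RRP1, RRP9, RRP12, RRS1, PPAN, NOC2L, NOC4L and POLR1A.

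The other large subunit factors ranged from no change to some of the larger increases. EBNA1BP2 (chr1:43164174-43172570), which binds nucleolar precursors of the large subunit, had the smallest adjusted p of all factors in RES. Its libraries gave 45.1, 50.5 and 47.2 CPM in Model, 55.1, 61.0 and 52.9 in FUCO-2 and 78.3, 80.1 and 79.5 in RES. The 3 groups were separate, with RES far above FUCO-2. EBNA1BP2 was higher than in Model by 0.24 in FUCO-2 (SE 0.078, adjusted p = 0.0291) and by 0.74 in RES (SE 0.077, adjusted p = 2.44e-08), and higher in RES than in FUCO-2 by 0.49 (SE 0.077, adjusted p = 1.01e-05). NOC3L (0.55 and 0.76), RRS1 (0.44 and 0.77), NOC2L (0.26 and 0.61) and NOP16 (0.39 and 0.64), all nucleolar assembly factors, were called in both treatments. The FUCO-2 call was lost in 12 of 26 alternatives for NOC2L (adjusted p up to 0.243), in 3 for NOP16 and in 2 for RRS1. DDX18, a helicase, was called in RES (0.53, adjusted p = 1.23e-05) and not in FUCO-2 (0.15, adjusted p = 0.237), and its level differed between RES and FUCO-2 (0.39, adjusted p = 0.000524). GNL3 (0.35) and NIP7 (0.30) were called in RES and not in FUCO-2, where their differences were 0.14 and 0.23, and RES and FUCO-2 were not called different for either gene (adjusted p = 0.0659 and 0.493).

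RRP1, which like BOP1 acts in the large subunit pathway, was called in FUCO-2 (0.37, adjusted p = 0.0167) and not in RES (0.03, adjusted p = 0.842). Its FUCO-2 libraries, at 80.9, 72.1 and 66.9 CPM, lay above all RES libraries, at 62.2, 54.6 and 57.3. RRP1 was lower in RES than in FUCO-2 (-0.34, SE 0.11, adjusted p = 0.0109). PPAN was called in FUCO-2 (0.47, adjusted p = 0.0393) with overlap of the groups, and not in RES (0.35, adjusted p = 0.0698). GNL2, a GTPase of large subunit export, was within 0.03 of 0 in both comparisons. NOP2 had too few counts for a firm statement, with log2 differences of 0.43 (SE 0.26) and 0.22 (SE 0.26).

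The multifunctional nucleolar proteins DDX21 and NOLC1 rose in both treatments. DDX21, a helicase that acts in RNA polymerase I transcription and snoRNA binding, was at 131.3, 165.6 and 145.7 CPM in Model, 186.7, 228.5 and 199 in FUCO-2 and 214, 204.6 and 205.5 in RES. Neither treated group overlapped Model, and the log2 differences were 0.47 (SE 0.093, adjusted p = 0.000838) and 0.50 (SE 0.093, adjusted p = 0.000102). NOLC1, a chaperone of snoRNPs, stood at 137.7, 143.8 and 131.7 CPM in Model, 152.9, 183.9 and 157.8 in FUCO-2 and 209.8, 205 and 198.4 in RES. The 3 groups were separate, and NOLC1 was higher than in Model by 0.26 (SE 0.083, adjusted p = 0.0282) and 0.57 (SE 0.083, adjusted p = 3.83e-06).

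NCL and NPM1, the most abundant factors, had small log2 differences from Model. NCL stood at 750.7, 792.1 and 739 CPM in FUCO-2 and 896.4, 858.7 and 860.7 in RES, beside its Model libraries at 702.9, 754.7 and 765. FUCO-2 overlapped Model and was not called (0.04, SE 0.069, adjusted p = 0.744), and RES was higher (0.24, SE 0.069, adjusted p = 0.00641). NPM1 gave 573.2, 599 and 621.2 CPM in Model, 628.4, 743.2 and 711.1 in FUCO-2 and 648, 647.8 and 694.1 in RES. Both treated groups lay above Model without overlap, but neither passed the threshold (0.22, SE 0.084, adjusted p = 0.0723, and 0.15, SE 0.084, adjusted p = 0.145). NPM1 has many processed pseudogenes, and how reads with several matches were counted is not stated.

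**Figure D3:**
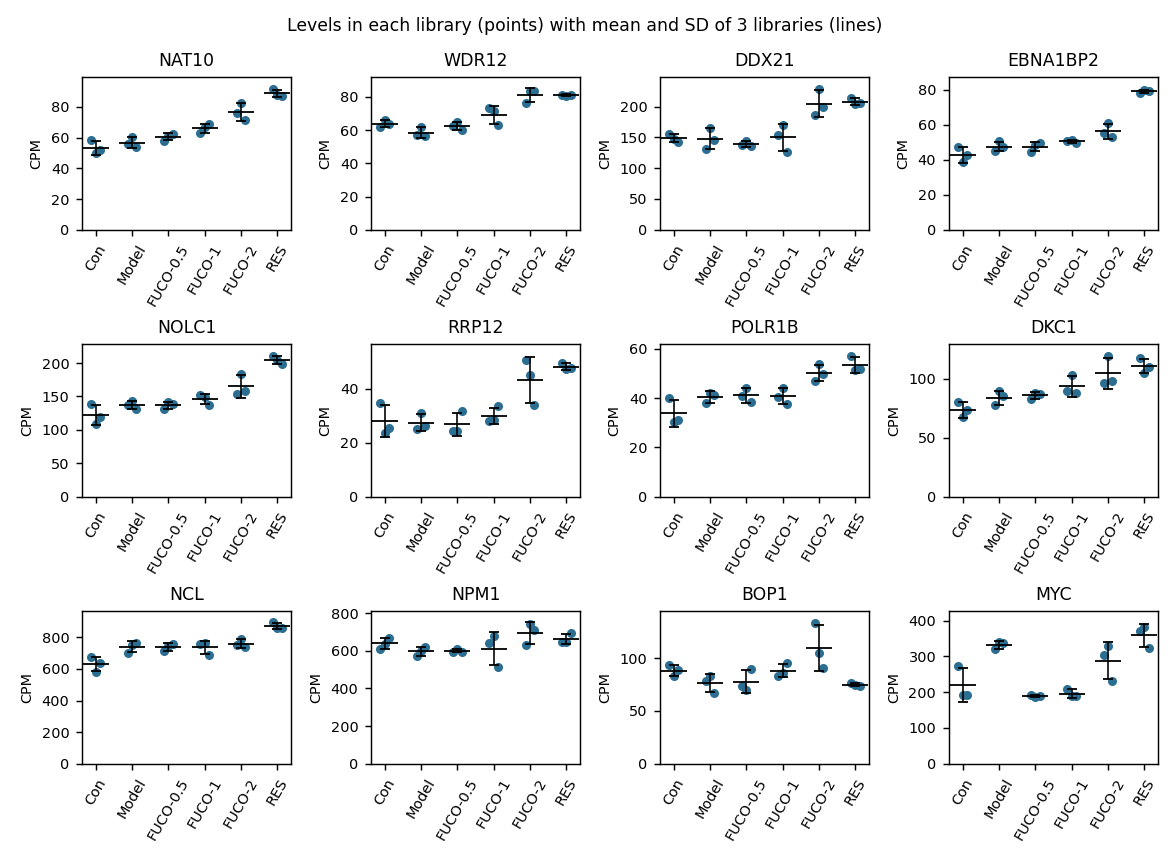
CPM of 11 factors and MYC in each library (points), with the mean and SD of the 3 libraries of each group (lines), on axes that start at 0. NAT10, NOLC1 and EBNA1BP2 step up from Model to FUCO-2 to RES, WDR12 and DDX21 overlap between FUCO-2 and RES, BOP1 has its highest mean in FUCO-2, and MYC is low in FUCO-0.5 and FUCO-1.

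The step from 1 to 2 μM fucoxanthin was tested directly. DDX21, NOC3L and RRP12 were higher in FUCO-2 than in FUCO-1 and no factor was lower, 3 of 40 (7.5%) beside 4.07% of all genes higher and 2.23% lower. The FUCO-1 libraries of DDX21, at 154.5, 169.3 and 126.8 CPM, all lay below the FUCO-2 libraries, and the log2 difference was 0.45 (SE 0.093, adjusted p = 0.00505). It was 0.54 for NOC3L (SE 0.12, adjusted p = 0.0102) and 0.54 for RRP12 (SE 0.14, adjusted p = 0.0196), neither with overlap. Over the factors the median was 0.167, against 0.014 for all genes, and 38 of 40 were above 0, all but FBL and NOP56. At an unadjusted p under 0.05, 18 factors were higher and none lower, where 20.3% of all genes passed in either direction. DESeq2 called 5 factors, and 1101 of all genes. The count was 1 without FUCO-2 replicate 2, 6 without FUCO-2 replicate 1 or FUCO-2 replicate 3, and 5 without Con replicate 1. Of all genes, 366, 922, 974 and 1228 were called in either direction in these fits, in the same order. With all libraries 593 genes were higher and 324 lower. Library totals alone gave 5, beside 5.12% of all genes higher and 1.56% lower.

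RES and FUCO-2 themselves differed for 13 factors. Higher in RES were 10 (25%) and lower 3 (7.5%), beside 22.5% and 26% of all genes, so the share of factors higher was near that of all genes. The 10 were EBNA1BP2, DDX18, NOC2L, NOLC1, PNO1, POLR1C, RRS1, NCL, NAT10 and LTV1, with log2 differences of 0.20 to 0.49, and the 3 were BOP1, RRP1 and FBL. DESeq2 gave the same numbers of 10 and 3. The groups did not overlap for 11 factors higher in RES and 3 lower, beside 27.8% and 29.4% of all genes, and RRS1 was called with overlap. At an unadjusted p under 0.05, 14 factors were higher and 3 lower, where 54.9% of all genes passed. The median was 0.088, against -0.015 for all genes. With library totals alone 15 factors were higher and 1 was lower, beside 29.9% and 21% of all genes. The RES dose of these libraries is not given, so the comparison sets an unknown dose against 2 μM.

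**Figure D4:**
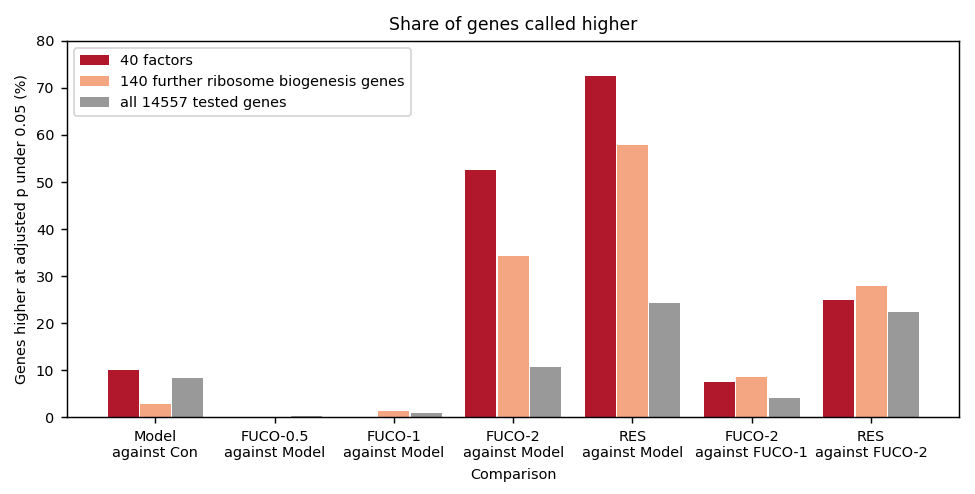
Share of genes called higher at an adjusted p under 0.05 in edgeR in each of the 7 comparisons, for the 40 factors, 140 further ribosome biogenesis genes and all 14557 tested genes. The bars of the factors reach 52.5% in FUCO-2 against Model and 72.5% in RES against Model, where all tested genes reach 10.8% and 24.4%.

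The rest of the pathway was examined as 140 further genes of RNA polymerase I, snoRNPs, both subunit pathways and the RNA exosome, all of which were tested. In FUCO-2 against Model, 48 (34.3%) were higher and 4 (2.86%) lower, beside 10.8% and 9.71% of all genes, with a median log2 difference of 0.178. In RES against Model, 81 (57.9%) were higher and 2 (1.43%) lower, beside 24.4% and 25.1% of all genes, with a median of 0.261. In Model against Con 4 were higher and 4 lower (2.86% each), below the 8.43% and 9.12% of all genes. In FUCO-1 against Model 2 were higher (1.43%, beside 0.893% of all genes) and none was lower, and in FUCO-0.5 none was called, beside 0.289% and 1.16% of all genes. In RES the calls held 35 of 47 further small subunit genes, 27 of 49 of the large subunit, 7 of 17 of RNA polymerase I, 6 of 13 of snoRNPs and 6 of 14 of the exosome. In FUCO-2 they held 16, 20, 5, 3 and 4 genes of the same groups.

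The smallest adjusted p-values in FUCO-2 belonged to NOB1, LYAR and HEATR1. NOB1, the nuclease that makes the end of the mature small subunit RNA, was at 21.6, 23.3 and 23.7 CPM in Model, 35.5, 38.7 and 33.3 in FUCO-2 and 24.4, 24.8 and 23.0 in RES. It was higher in FUCO-2 (0.65, SE 0.089, adjusted p = 1.47e-05), not called in RES (0.07, adjusted p = 0.527), and lower in RES than in FUCO-2 (-0.58, adjusted p = 7.73e-06). LYAR (0.64 and 0.59) and HEATR1 (0.56 and 0.59), a factor of RNA polymerase I transcription and the early small subunit particle, were higher in both treatments. The lower genes were led in FUCO-2 by RRP36 (-0.30, adjusted p = 0.0078), RBM34 (-0.78, adjusted p = 0.037) and DDX24 (-0.21, adjusted p = 0.0386). RBM34 had only 21, 30 and 23 counts in Model and 17, 14 and 11 in FUCO-2, and its call was lost in 7 of 26 alternatives (adjusted p = 0.176 when Model replicate 2 was left out). That of DDX24 was lost in 12, with a log2 difference of -0.14 and an adjusted p of 0.187 without FUCO-2 replicate 1. In RES, RUVBL1 (0.63), UTP3 (0.62) and the exosome subunit EXOSC3 (0.76) had the smallest adjusted p-values. UTP3 was at 0.02 in FUCO-2 (adjusted p = 0.872) and higher in RES than in FUCO-2 (0.60, adjusted p = 2.49e-07). MPHOSPH6 (-0.23, adjusted p = 0.0469) and PIH1D1 (-0.19, adjusted p = 0.0498) were lower in RES, just inside the threshold. These calls were lost in 13 and 14 of 26 alternatives, and with libraries scaled by their totals the differences were -0.10 and -0.05 (adjusted p = 0.401 and 0.601). In Model against Con, SHQ1 (0.46), RIOK2 (0.41) and GAR1 (0.28) were higher, and EXOSC8 (-0.37), POLR1D (-0.30) and NOP53 (-0.43) lower.

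The mRNA level of MYC was set beside the calls of the factors. Its libraries stood at 273.7, 191.1 and 191.9 CPM in Con, 320, 338.9 and 338.7 in Model, 191, 186.9 and 190.4 in FUCO-0.5, 209.3, 187.9 and 188.6 in FUCO-1, 305.2, 327.7 and 230 in FUCO-2 and 372.3, 383 and 322.7 in RES. Model lay above Con, FUCO-0.5 and FUCO-1 without overlap. MYC was higher in Model than in Con (log2 0.60, SE 0.12, adjusted p = 0.000682), where 4 factors were called (10%, beside 8.43% of all genes higher). It was lower than in Model in FUCO-0.5 (-0.81, SE 0.12, adjusted p = 0.000107) and FUCO-1 (-0.77, SE 0.12, adjusted p = 0.000168), where no factor was called. Few of all genes were called there, 0.289% and 0.893% higher and 1.16% and 2.32% lower. The fitted differences were above 0 for 26 of 40 factors in FUCO-0.5 (median 0.022) and for 34 of 40 in FUCO-1 (median 0.076). In FUCO-2 (-0.21, SE 0.12, adjusted p = 0.214) and RES (0.11, SE 0.12, adjusted p = 0.445), the level of MYC was not called different from Model. There 52.5% and 72.5% of the factors were called higher, beside 10.8% and 24.4% of all genes. MYC was higher in FUCO-2 than in FUCO-1 (0.56, SE 0.12, adjusted p = 0.00502), the step at which DDX21, NOC3L and RRP12 also rose (7.5% of the factors, beside 4.07% of all genes). It was also called higher in RES than in FUCO-2 (0.32), where 10 factors were higher and 3 lower (25% and 7.5%, beside 22.5% and 26% of all genes). That call of MYC was lost in 3 of 26 alternatives. Only mRNA was measured here, and a part of MYC in the levels of the factors was not tested. MAX stood at 28.2, 29.7 and 29.3 CPM in Model and 39.4, 36.5 and 37.4 in RES, and was higher in RES (0.38, SE 0.080, adjusted p = 0.000356).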

How the data were processed

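Polyadenylated RNA of 18 Hep3B libraries was sequenced by the authors, using fastp for trimming, STAR for alignment (build GRCh38.p14) and featureCounts for counting. The deposited values are raw counts, without normalization. Columns were matched to groups by the library names in the labels. The strand setting of the counting is not given in the sources used here, and 9 factors overlap another gene holding over 5% of their counts.

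R 4.3.3 with edgeR 4.0.16 was used on all 14557 genes kept by filterByExpr (minimum count 10, minimum total 15), with TMM factors, 1 term for each of the 6 groups and quasi-likelihood tests (prior count 0.125). A gene was called at a Benjamini-Hochberg adjusted p under 0.05 over all tested genes. A DEG also had an absolute log2 fold change over 1. SE is the log2 fold change divided by the root of the F statistic. DESeq2, the tool of the authors, was run as an alternative (version 1.42.0). CPM use the TMM factors, and lengths are unions of exons in GENCODE v44.

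The factors and the lists were chosen with earlier results of these data known. All 40 factors could be named. Values in each library are given for the 3 smallest adjusted p-values in each direction (Model against Con, FUCO-2 and RES against Model), for factors standing for each role, and for further factors chosen after their values were seen (RRP12, RRP1). Of the further genes, the same 3 in each direction were named, with MYC and MAX. Replicates differed by more than sampling noise (chi-square per degree of freedom 2.34 to 20), so none was counted as a duplicate. Same-numbered libraries were not treated as pairs in the fit.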

Additional observations from a re-analysis of the deposited data

How the results depend on the processing

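Over 26 alternatives (18 libraries left out in turn and 8 other settings, of which a prior count of 2 bears on single genes only), no called result reversed, and the FUCO-0.5 median, for which no factor was called, crossed 0. Leaving out 1 library gave 0 to 13 factors called in Model against Con, 0 to 0 in FUCO-0.5, 0 to 1 in FUCO-1, 8 to 23 in FUCO-2 and 27 to 31 in RES against Model, 1 to 6 in FUCO-2 against FUCO-1 and 9 to 15 in RES against FUCO-2. The median log2 differences ranged from 0.041 to 0.165, -0.02 to 0.063, 0.046 to 0.126, 0.202 to 0.29, 0.341 to 0.43, 0.109 to 0.226 and 0.049 to 0.146 in the same order. For the single omissions named in the results, the calls over all genes are given there. Scaling by library totals alone called 9 factors in Model against Con, 1 in FUCO-1 against Model and 5 in FUCO-2 against FUCO-1 (2725, 485 and 973 of all genes). It gave a median of 0.507 in RES against Model. In FUCO-1 against Model, at least 10 counts in every library gave 1, DESeq2 gave 2 and a fit of the 2 groups alone gave 4 (481, 653 and 976 of all genes). In FUCO-2 against FUCO-1, no filter gave 7 and DESeq2 gave 5 (1207 and 1101 of all genes). Of the factors called, 0 of 4 in Model against Con, 8 of 21 in FUCO-2 and 26 of 29 in RES against Model, 1 of 3 in FUCO-2 against FUCO-1 and 6 of 13 in RES against FUCO-2 were called under every alternative. The cause of these changes was not tested.

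Replicate numbers in the titles are shared by the groups. Same-numbered libraries correlated at -0.164 to 0.155 in their deviations from the group means, not all over 0.1, and no pairing was used. With 3 libraries per group, this cannot show whether same-numbered libraries shared a culture or a day. A fit with the replicate number as a block called 4, 0, 0, 21, 30, 4 and 13 factors in the order above. Counts under 40 per library limit NOP2.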
